A study of Mus musculus with 2 samples.

Results

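The genes of the caveola, a flask-shaped pit of the plasma membrane, and of the diaphragm that spans such pits in endothelium were followed through the lungs of chimeric mice. The 8 genes were chosen by name, with earlier results of these data known: Cav1, Cav2, Cavin1, Cavin2, Cavin3, Ehd2, Plvap and Emp2. All 8 were among the 32285 genes of both count matrices. Lungs of C57Bl mice were studied 6 months after the mice had been given single cells that carried the red reporter tdTomato. Cells from 3 such mice were pooled, and CD45-negative cells were sorted into reporter-positive cells (donor library) and reporter-negative cells (recipient library). Both libraries therefore came from the same pooled lungs, and the labels state neither the strain of the donors nor the age or sex of the animals. With 1 library per group there was no replicate and no test, and every interval below is a 95% interval that covers counting error only.

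Caveolin-1, encoded by Cav1, is the protein without which caveolae do not form outside muscle, and caveolin-2 joins it in the coat. The cavins form a second, outer coat: cavin-1 is required for caveolae, while cavin-2 and cavin-3 bind to it and adjust their shape and number. EHD2 is an ATPase that gathers at the caveolar neck and holds caveolae at the surface. PLVAP, the product of Plvap, is the protein of the stomatal and fenestral diaphragms and is used as a marker of endothelium with such diaphragms. EMP2 is a small 4-pass membrane protein of the PMP22 family that has been reported to affect the level of caveolin-1 and is abundant in lung. In the alveolus the capillary bed has a pair of endothelial types. General capillary cells are the stem-like type, and aerocytes are the large, flat cells that face the thin air barrier built with epithelial type 1 cells.

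Cav1 and Cav2 are neighbours on mouse chromosome 6, on the plus strand, at 17306335 to 17341452 and 17281185 to 17289115 (mm10). The gap between them is 17219 bases and holds 0 protein-coding genes. Cavin1 is on chromosome 11 (100956733 to 100970887, minus strand), Cavin2 on chromosome 1 (51289126 to 51302960, plus strand) and Cavin3 on chromosome 7 (105480083 to 105482300, minus strand). Ehd2 is on chromosome 7 (15946958 to 15967567, minus strand), Plvap on chromosome 8 (71497765 to 71511752, minus strand) and Emp2 on chromosome 16 (10281749 to 10313968, minus strand). The levels of Cav1, Cav2 and Cavin2 moved together across the cell types described below, and that of Emp2 did not. Cavin1 moved with the first 3 as well, but its window is not shown. The 250 bases upstream of the annotated start are shown for Cav1, Cav2, Cavin2 and Emp2. They come from RefSeq on GRCm38.p6, which had windows for 6 of the 8 genes, and are written 5′ to 3′ on the strand of the gene, with capitals for matches on either strand to 4 motifs that do not overlap each other here. These were the GC box with the letters GGGCGG, the CCAAT box with the letters of its name, the TATA box spelled TATAAA, and an ETS site with the letters CCGGAAG. The windows are chr6:17306085-17306334 for Cav1, chr6:17280935-17281184 for Cav2, chr1:51288876-51289125 for Cavin2 and chr16:10313969-10314218 for Emp2, the last on the minus strand.
Cav1: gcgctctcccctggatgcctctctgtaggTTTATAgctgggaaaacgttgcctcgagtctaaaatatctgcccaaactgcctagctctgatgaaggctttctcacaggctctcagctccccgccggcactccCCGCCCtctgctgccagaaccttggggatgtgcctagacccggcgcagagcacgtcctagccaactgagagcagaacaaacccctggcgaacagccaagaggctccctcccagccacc
Cav2: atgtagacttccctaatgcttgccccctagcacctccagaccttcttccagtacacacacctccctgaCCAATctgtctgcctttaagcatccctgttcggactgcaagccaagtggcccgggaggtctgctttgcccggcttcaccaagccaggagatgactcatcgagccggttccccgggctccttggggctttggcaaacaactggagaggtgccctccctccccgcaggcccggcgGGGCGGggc
Cavin2: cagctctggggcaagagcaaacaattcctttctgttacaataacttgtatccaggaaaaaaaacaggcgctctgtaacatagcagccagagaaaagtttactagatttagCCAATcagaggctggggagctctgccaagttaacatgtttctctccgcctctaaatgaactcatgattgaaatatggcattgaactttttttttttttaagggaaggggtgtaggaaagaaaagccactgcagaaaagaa
Emp2: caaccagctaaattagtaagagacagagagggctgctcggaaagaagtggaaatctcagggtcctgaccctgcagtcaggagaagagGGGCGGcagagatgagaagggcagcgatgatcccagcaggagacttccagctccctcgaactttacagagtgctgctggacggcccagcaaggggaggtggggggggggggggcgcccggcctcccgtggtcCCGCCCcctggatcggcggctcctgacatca
None of the 4 motifs was found in all 3 windows of Cav1, Cav2 and Cavin2. The GC box was in the windows of Cav1 and Cav2 (1 match each) and of Emp2 (2 matches), and in 32.7% of all 32851 windows of this length. CCAAT was in those of Cav2 and Cavin2 (1 match each) and in 33.8% of all windows. The TATA box was in that of Cav1 alone among the 4, on the opposite strand, with its first base 221 bases before the start, and in 12.4% of all windows. The ETS site was in none of the 4 and in 6.91% of all windows. The share of G and C was 40.4% in the Cavin2 window, against 59.6% to 62.8% in the other 3 and a median of 52.4% over all windows.

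Before filtering there were 6319 donor-library barcodes with 37997269 UMIs (a UMI is a molecular tag that counts 1 transcript once), against 3784 barcodes and 26201315 UMIs on the recipient side. The libraries shared 816 barcodes, and in 728 of these the donor-library copy was over 5-fold smaller, so the smaller copy was left out. After filtering, 4571 donor-library cells (median 6090 UMIs) and 3192 recipient-library cells (median 6382.5 UMIs) were left. Cells were placed in 8 types by counting distinct marker genes with a UMI, and none of the 8 genes was a marker. Donor and recipient libraries gave 1491 and 589 aerocytes, 2388 and 406 general capillary cells, 141 and 93 venous cells, 67 and 19 arterial cells, 3 and 73 lymphatic cells, 26 and 159 type 1 cells, 37 and 406 pericytes, and 9 and 1005 fibroblasts. The libraries were compared in aerocytes, general capillary cells and venous cells, where each had at least 50 cells, and the other types are given side by side. All markers of a type's own list were detected in both libraries in 7 of the 8 types, and in donor arterial cells Dkk2 was at 0. The arterial gates were not alike: the general capillary gene Gpihbp1 was at 1879 CPM (the usual depth-scaled count, here of a gene's UMIs summed over the cells of a type) in donor arterial cells and 859 CPM in recipient ones, and Mgp at 521 and 4319 CPM.

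Cav1 was a gene of blood endothelium and type 1 cells in both libraries. Its level was 937 CPM (interval 921 to 953) in donor aerocytes and 897 (869 to 925) in recipient aerocytes. General capillary cells had 1392 (1372 to 1412) in the donor library, against 1389 (1342 to 1437) in the recipient one. The intervals of donor and recipient cells overlapped in both types, and both libraries had less Cav1 in aerocytes than in general capillary cells. Venous cells had 1310 CPM in the donor library, against 944 in the recipient one, and arterial cells 1206 and 1559. Type 1 cells had 1059 CPM in the donor library, against 969 in the recipient one. Recipient lymphatic cells, with 351 CPM, stood below every other endothelial type of that library. Recipient fibroblasts had 87.7 CPM and recipient pericytes 15.97 CPM (10.9 to 22.5), from 32 UMIs in 406 cells. In the recipient library, the level in general capillary cells was 86.9-fold that in pericytes. The next levels below general capillary cells, in type 1, venous and aerocyte cells, lay close together, with the intervals of neighbours overlapping.

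Cav2 had almost the same distribution, but aerocytes and not general capillary cells stood highest. Aerocytes had 1056 CPM (1038 to 1073) in the donor library, against 1067 (1036.5 to 1098) in the recipient one. General capillary cells had 979 and 974 CPM in donor and recipient libraries, venous cells 770 and 675, arterial cells 809 and 699, and type 1 cells 885 and 737. Recipient lymphatic cells had 362 CPM, fibroblasts 44.3 and pericytes 40.9, the last pair with overlapping intervals. The make-up of the caveolin UMIs therefore differed between the capillary types. Cav2 made up 53.0% of Cav1 and Cav2 UMIs in donor aerocytes and 54.3% in recipient ones, against 41.3% and 41.2% in general capillary cells. The highest recipient share was that of pericytes, 71.9% of only 114 UMIs (62.7 to 79.9). In recipient lymphatic cells the share was 50.8% and in recipient type 1 cells 43.2%. Recipient alveolar fibroblasts had 43.4%, myofibroblasts 43.1% and adventitial fibroblasts 14.0%. These shares are compared between cell types only, since the counts of different genes need not be captured alike.

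**Figure D1:**
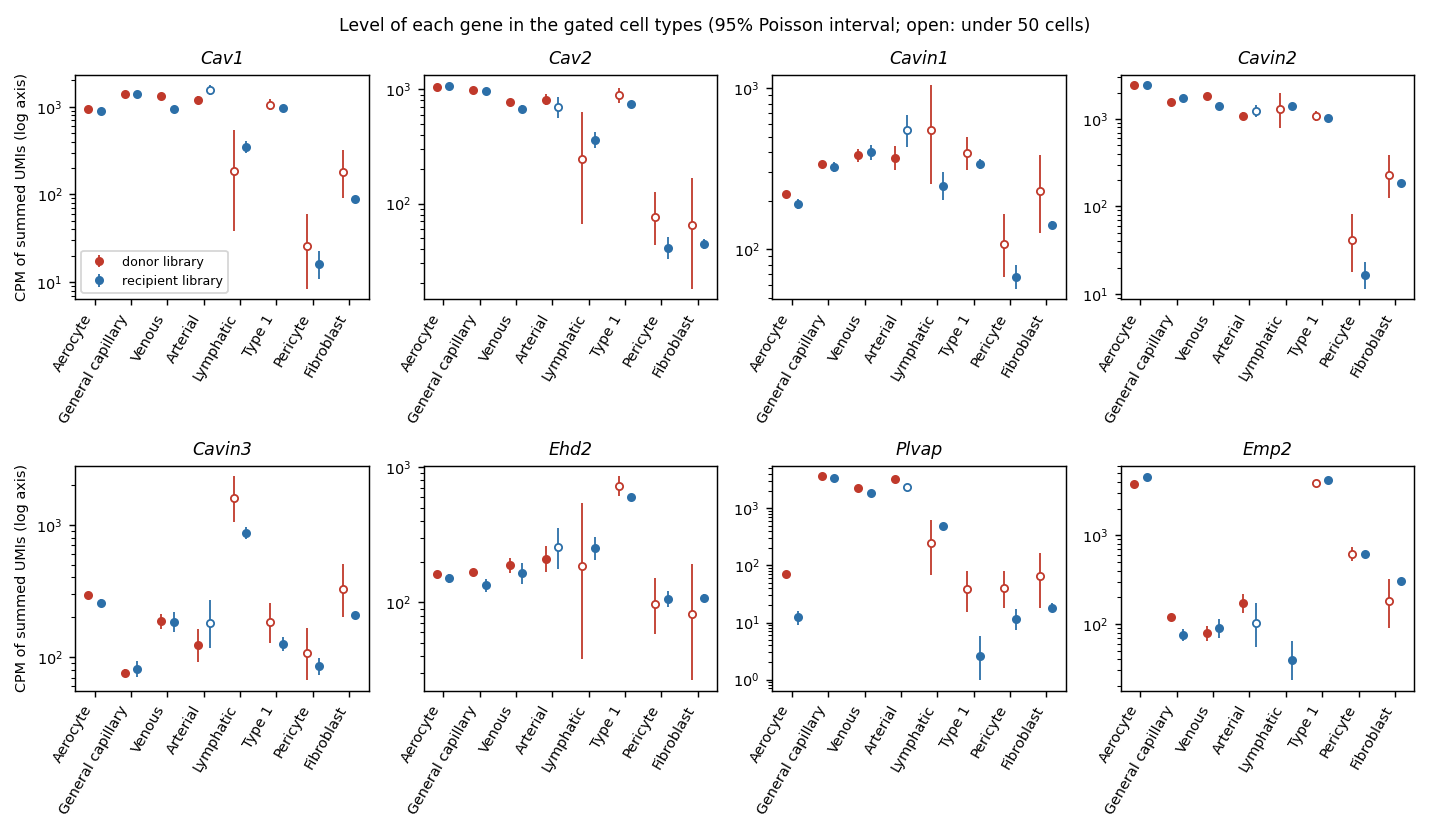
Level of each of the 8 genes in CPM (log axis) in each gated cell type, donor library in red and recipient library in blue, with 95% Poisson intervals and open symbols for types under 50 cells. Cav1, Cav2 and Cavin2 sit high in blood endothelium and type 1 cells and low in pericytes. Plvap is low in aerocytes and type 1 cells, and Emp2 is high in those 2 types.

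Among the cavins, Cavin1 varied least across the cell types. It had 221 CPM in donor aerocytes and 190 in recipient aerocytes, and 339 and 323 CPM in donor and recipient general capillary cells. Venous cells had 382 CPM in the donor library, against 399 in the recipient one, arterial cells 369 and 546, and type 1 cells 396 and 340. Recipient lymphatic cells had 248 CPM, fibroblasts 142 and pericytes 67.4. The recipient venous level was 5.92-fold the pericyte level, the whole range of the gene over the 7 recipient types with at least 50 cells.

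Cavin2 was highest in aerocytes and lowest in pericytes. Aerocytes had 2426 CPM (2399 to 2452) in the donor library, against 2417 (2371 to 2464) in the recipient one. General capillary cells had 1553 CPM (1532 to 1574) in the donor library, against 1732 (1679 to 1785) in the recipient one. Venous cells had 1821 CPM in the donor library, against 1412 in the recipient one, and arterial cells 1085 and 1238. Unlike Cav1, Cavin2 was about as high in recipient lymphatic cells (1412 CPM, 1301 to 1529) as in recipient venous cells, with overlapping intervals. Type 1 cells had 1086 CPM in the donor library, against 1021 in the recipient one. Recipient fibroblasts had 184 CPM and recipient pericytes 16.5 CPM (11.3 to 23.1), 147-fold below recipient aerocytes.

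Cavin3 did not follow the other 2 cavins. Its highest level was in lymphatic cells, 867 CPM (781 to 960) in the recipient library, and 26 UMIs in the 3 donor lymphatic cells gave 1596 CPM (1042 to 2338). Aerocytes had 293 CPM (284 to 302) in the donor library, against 257 (243 to 273) in the recipient one. General capillary cells had 76.1 CPM (71.5 to 80.9) in the donor library, against 81.5 (70.4 to 93.8) in the recipient one, the lowest of the recipient types together with pericytes at 85.3. Venous cells had 187 CPM in the donor library, against 185 in the recipient one, arterial cells 124 and 182, and type 1 cells 185 and 125. Recipient fibroblasts, at 209 CPM, lay above venous cells with overlapping intervals. After each cell had been thinned to 2000 UMIs, Cavin3 was detected in 81.9% of recipient lymphatic cells (71.1 to 90.0), 31.3% of recipient aerocytes and 15.1% of recipient general capillary cells. Without thinning the shares were 93.2%, 70.6% and 31.5%.

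The cavin UMIs were accordingly made up in different ways. Cavin2 made up 82.5% of the UMIs of the 3 cavins in donor aerocytes and 84.4% in recipient aerocytes, and 78.9% and 81.1% in donor and recipient general capillary cells. Recipient lymphatic cells had 55.9% Cavin2 and 34.3% Cavin3. In recipient pericytes Cavin2 made up 9.73% of 339 UMIs and Cavin3 50.4%. Recipient fibroblasts had 34.4% Cavin2 and 39.1% Cavin3.

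**Figure D2:**
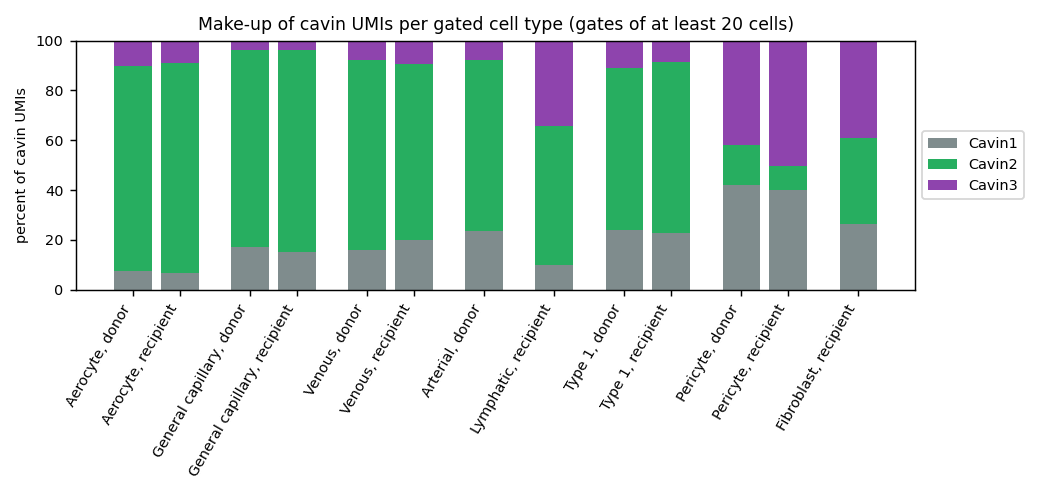
Percent of the UMIs of Cavin1, Cavin2 and Cavin3 that belong to each gene in every gated type of at least 20 cells, donor library left of recipient library where both are shown (recipient arterial cells, 19, are left out). Cavin2 makes up 82.5% and 84.4% in donor and recipient aerocytes, and 9.73% in recipient pericytes.

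Fibroblast subtypes of the recipient library differed in the same genes. Adventitial fibroblasts (46 cells) had 229 CPM Cav1 (186 to 279), against 47.6 (41.6 to 54.2) in alveolar fibroblasts (678 cells) and 91.6 (73.8 to 112) in myofibroblasts (152 cells). Cavin3 was at 339 CPM in adventitial, 161 in alveolar and 239 in myofibroblasts. Cavin2 ran the other way, with 91.2 CPM (64.9 to 125) in adventitial cells and 208 (195 to 221) in alveolar cells. Cav2 stayed low in all 3, at 37.4, 36.5 and 69.5 CPM in adventitial, alveolar and myofibroblast cells. The endothelial markers of the gate summed to 115 CPM in recipient fibroblasts, and the part of free RNA in these low levels was not tested.

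Ehd2, the neck ATPase, was highest in type 1 cells. Type 1 cells had 722 CPM (605 to 856) in the donor library, against 601 (570 to 634) in the recipient one. Aerocytes had 162 and 151 CPM in donor and recipient libraries, general capillary cells 168 and 134, and venous cells 188 and 165. The recipient type 1 level lay apart from all other recipient types. Arterial cells (19) came next at 255 CPM (178 to 355) and lymphatic cells at 250 CPM (205 to 302), with overlapping intervals. Recipient fibroblasts and pericytes had 108 and 106 CPM. Over the 4 donor endothelial types with at least 50 cells the highest level, in arterial cells at 210 CPM, was 1.30-fold the lowest, in aerocytes. After thinning to 2000 UMIs, Ehd2 was detected in 66.4% of recipient type 1 cells (58.3 to 73.9), 23.1% of recipient aerocytes and 22.0% of recipient general capillary cells.

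Plvap, the diaphragm gene, separated the capillary types. Aerocytes had 70.6 CPM (66.2 to 75.2) in the donor library, against 12.3 (9.21 to 15.996) in the recipient one. General capillary cells had 3653 CPM (3621 to 3686) in the donor library, against 3410 (3337 to 3485) in the recipient one. Arterial cells had 3300 CPM in the donor library, against 2323 in the recipient one, and venous cells 2245 and 1845. Recipient lymphatic cells had 493 CPM (429 to 564), so that all endothelial types but aerocytes were far above the non-endothelial ones. Type 1 cells had 7 UMIs in 26 donor cells (38.0 CPM, 15.3 to 78.3) and 6 UMIs in 159 recipient cells (2.64 CPM, 0.968 to 5.74). Pericytes had 41.0 CPM in the donor library, against 11.5 in the recipient one, and fibroblasts 65.5 and 18.3. The aerocyte level thus overlapped with those of type 1 cells, pericytes and fibroblasts in the donor library, and with those of pericytes and fibroblasts in the recipient library.

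At 2000 UMIs per cell, Plvap was detected in 10.6% of donor aerocytes (9.12 to 12.3) and 2.39% of recipient aerocytes (1.31 to 3.98). It was detected in 98.4% of donor general capillary cells (97.8 to 98.8) and 95.8% of recipient ones (93.3 to 97.5). Type 1 cells, which should lack the gene, gave 5.56% of 18 donor cells (0.141 to 27.3) and 1.32% of 152 recipient cells (0.160 to 4.67). The aerocyte shares were within the intervals of the type 1 shares, which rest on few cells. Without thinning, 30.4% of donor and 7.81% of recipient aerocytes had a UMI, at median depths of 8807 and 7444 UMIs, against 19.2% of donor and 3.77% of recipient type 1 cells, at 3408 and 14343 UMIs. Within general capillary cells the thinned counts had a median of 7 UMIs (quartiles 4 to 10) in the donor library, against 6 (4 to 9) in the recipient one. Their variance was 2.27 times the mean in the donor library, against 2.75 times in the recipient one, where counting alone gives 1. For Cav1 it was 1.27 and 1.49 times. The means were 7.47 and 6.64 UMIs for Plvap but 2.75 and 2.64 for Cav1. At an equal relative spread this ratio rises with the mean, so it cannot rank the spread of these genes.

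Emp2 had the opposite distribution in the capillaries and was high in type 1 cells and aerocytes. Aerocytes had 3841 CPM (3808 to 3874) in the donor library, against 4609 (4545 to 4672.5) in the recipient one. Type 1 cells had 3910 CPM (3629 to 4206) in the donor library, against 4206 (4123 to 4292) in the recipient one. General capillary cells had 120 CPM (114 to 126) in the donor library, against 75.6 (64.9 to 87.5) in the recipient one. Venous cells had 78.8 and 89.1 CPM in donor and recipient libraries, arterial cells 172 and 102, and recipient lymphatic cells 39.7. Pericytes were intermediate, with 621 CPM (515 to 742) in the donor library, against 617 (583 to 652) in the recipient one. Recipient fibroblasts had 309 CPM, and among them alveolar fibroblasts 404 (386 to 423), adventitial fibroblasts 115 (84.8 to 152) and myofibroblasts 144 (121 to 170). At 2000 UMIs per cell, Emp2 was detected in 99.9% of donor and 99.8% of recipient aerocytes, 68.8% of recipient pericytes, and 17.8% and 14.4% of donor and recipient general capillary cells (35.5% and 28.1% without thinning). Recipient lymphatic cells, lowest in Emp2 of that library's types, gave 11.1% (4.92 to 20.7; 20.5% without thinning), at median depths of 5398 and 5534.5 UMIs for donor and recipient general capillary cells and 4833 UMIs for lymphatic cells. With free RNA subtracted, general capillary cells had 53.2 CPM in donor and 36.7 CPM in recipient cells, and the part of free RNA in these low levels was not tested further.

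The 2 capillary types were then set against each other within each library. A gene was counted past 2-fold in either direction if equality lay outside its interval. Of the 8 genes, 2 were higher and 1 lower in aerocytes in the donor library, and the same counts held in the recipient library. Over all genes the share past this limit was 25.6% of 12383 in the donor library (7.97% higher, 17.6% lower), against 21.5% of 10740 in the recipient one (7.56% higher, 14.0% lower). The median log2 ratio of the 8 was 0.024 in donor cells, where that of all genes was -0.12, and 0.15 in recipient cells, where that of all genes was -0.051. Plvap was 51.7-fold lower in aerocytes in the donor library (48.5 to 55.2), against 278-fold lower in the recipient one (213 to 371). The log2 ratio of Plvap was -5.69 in donor and -8.12 in recipient cells, and -8.05 and -9.88 with free RNA subtracted. Emp2 was 32.0-fold higher in aerocytes in the donor library (30.5 to 33.7), against 61.0-fold higher in the recipient one (52.7 to 71.0). The log2 ratio of Emp2 was 5.002 in donor and 5.93 in recipient cells, and 6.20 and 6.99 with free RNA subtracted. Cavin3 was higher in aerocytes by 3.85-fold in donor cells (3.59 to 4.13), against 3.16-fold in recipient ones (2.71 to 3.70). Both libraries thus gave the same 3 genes in the same directions.

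The other 5 genes stayed within 2-fold. Cavin2 had a log2 ratio of aerocytes over general capillary cells of 0.64 (0.62 to 0.67) in the donor library, against 0.48 (0.43 to 0.53) in the recipient one. Cav1 had -0.57 (-0.60 to -0.54) in the donor library, against -0.63 (-0.70 to -0.56) in the recipient one. Cavin1 had -0.62 (-0.69 to -0.55) in the donor library, against -0.77 (-0.91 to -0.62) in the recipient one. Cav2 had 0.11 and 0.13 in donor and recipient libraries, with intervals above 0, and Ehd2 -0.059 and 0.17, with intervals that held 0. The coat genes therefore differed in sign between the capillary types, with Cav1 and Cavin1 on one side and Cavin2 on the other.

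**Figure D3:**
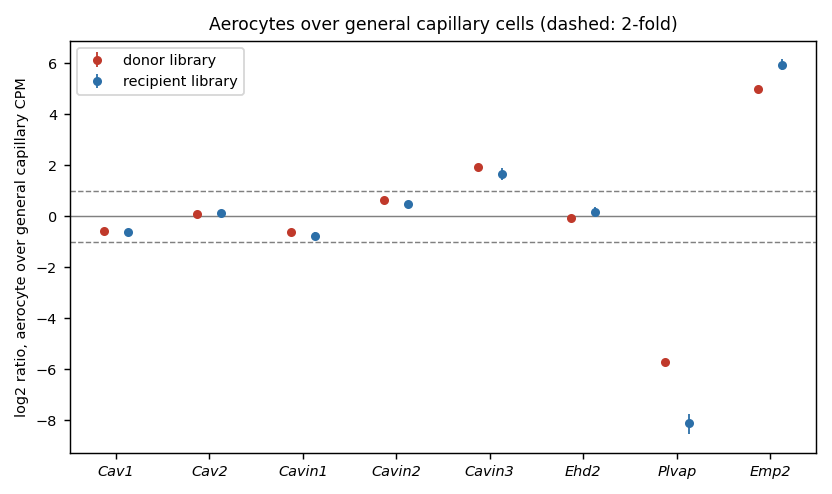
log2 ratio of aerocytes over general capillary cells for the 8 genes, donor library in red and recipient library in blue, with 95% exact conditional intervals and dashed lines at 2-fold. Plvap lies far below and Emp2 far above the dashed lines in both libraries, Cavin3 lies above them, and the other 5 genes lie between them.

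Donor and recipient libraries were next compared within a type, with a limit of 1.5-fold and equality outside the interval. In aerocytes 1 of the 8 genes was higher in the donor library and none lower, against 4.25% of 11415 genes past the limit in either direction (1.40% higher, 2.85% lower). The median log2 ratio of donor over recipient was 0.082 over the 8 genes and -0.017 over all genes. The gene past the limit was Plvap, 5.76-fold higher in donor aerocytes (4.38 to 7.72). Recipient aerocytes, at 12.3 CPM, lay above recipient type 1 cells, at 2.64 CPM, with no overlap of their intervals. Their interval overlapped those of recipient pericytes and fibroblasts, at 11.5 and 18.3 CPM. The higher donor value was not particular to aerocytes. Donor type 1 cells, pericytes and fibroblasts had 38.0, 41.0 and 65.5 CPM, from only 7, 8 and 4 UMIs. Of the 952 Plvap UMIs of donor aerocytes, 354 lay in 29 cells with at least 5 UMIs, and without those cells the level was 45.7 CPM. Recipient aerocytes had no such cell, with a highest count of 3. General capillary markers summed to 358 CPM in donor aerocytes and 312 CPM in recipient aerocytes, with 6 of 6 markers detected in each. Without the removal of cells with high doublet scores the Plvap levels were 124 and 27.5 CPM in donor and recipient aerocytes, and with free RNA subtracted 14.0 and 3.69 CPM. With shared barcodes kept they were 70.6 and 12.6 CPM. An aerocyte gate with at most 1 general capillary marker gave 43.8 CPM in donor and 8.22 CPM in recipient aerocytes. The log2 ratio of 2.53 was 1.66 without the exclusion of cells that carried markers of other types and 1.93 with free RNA subtracted. The part of doublets and free RNA in this ratio was not tested beyond these values.

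The other 7 genes lay within 1.5-fold in aerocytes. Emp2 had a log2 ratio of -0.26 (-0.29 to -0.24), Cavin1 0.22 (0.11 to 0.33) and Cavin3 0.19 (0.090 to 0.28). Cav1 had 0.063, Cav2 -0.015, Cavin2 0.0050 and Ehd2 0.10. The intervals of Cav2, Cavin2 and Ehd2 held 0.

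In general capillary cells 1 of the 8 genes was higher in the donor library and none lower, against 9.47% of 11948 genes past the limit (3.38% higher, 6.09% lower). The median log2 ratio was 0.039 over the 8 genes and -0.0075 over all genes. Emp2 was 1.59-fold higher in donor cells (1.36 to 1.86). The donor cells with at least 5 Emp2 UMIs numbered 62 of 2388 and held 461 of 1623 UMIs, and without them the level was 89.0 CPM, against 67.6 CPM in recipient cells without 3 such cells. Aerocyte markers summed to 310 CPM in donor and 156 CPM in recipient general capillary cells, with 6 of 6 detected in each. This difference lay in Car4, at 261 CPM in donor and 102 CPM in recipient cells. Without Car4 the sum was not higher in donor cells. The part of aerocyte RNA in the Emp2 ratio was not tested. The log2 ratio, 0.67, fell short of 1.5-fold in 3 of 11 other settings: 0.50 as a mean of the CPM of single cells, 0.53 with free RNA subtracted and 0.55 without the exclusion of other types. Ehd2 had a log2 ratio of 0.33 (0.16 to 0.50), Cavin2 -0.16 (-0.21 to -0.11) and Plvap 0.099 (0.065 to 0.13). Cav1, Cav2, Cavin1 and Cavin3 lay between -0.099 and 0.069, with intervals that held 0.

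In venous cells 0 of the 8 genes passed the limit, against 9.27% of 8584 genes (5.18% higher, 4.09% lower). The median log2 ratio was 0.19 over the 8 genes and 0.040 over all genes. The nearest to the limit were Cav1, 1.39-fold higher in donor cells (1.27 to 1.52), and Cavin2, 1.29-fold higher (1.20 to 1.39). Plvap was 1.22-fold higher (1.14 to 1.30) and Cav2 1.14-fold higher (1.02 to 1.27), and the intervals of the other 4 genes held equality. The venous gates differed in their general capillary markers, which summed to 2643 CPM in donor and 1704 CPM in recipient cells, while venous markers summed to 7694 and 9776 CPM. Fibroblast markers summed to 2.36 CPM in donor venous cells, with 2 of 7 detected and Dcn and Pdgfra at 0, and to 107 CPM in recipient venous cells, with 7 of 7 detected. Their part in the venous ratios was not tested.

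**Figure D4:**
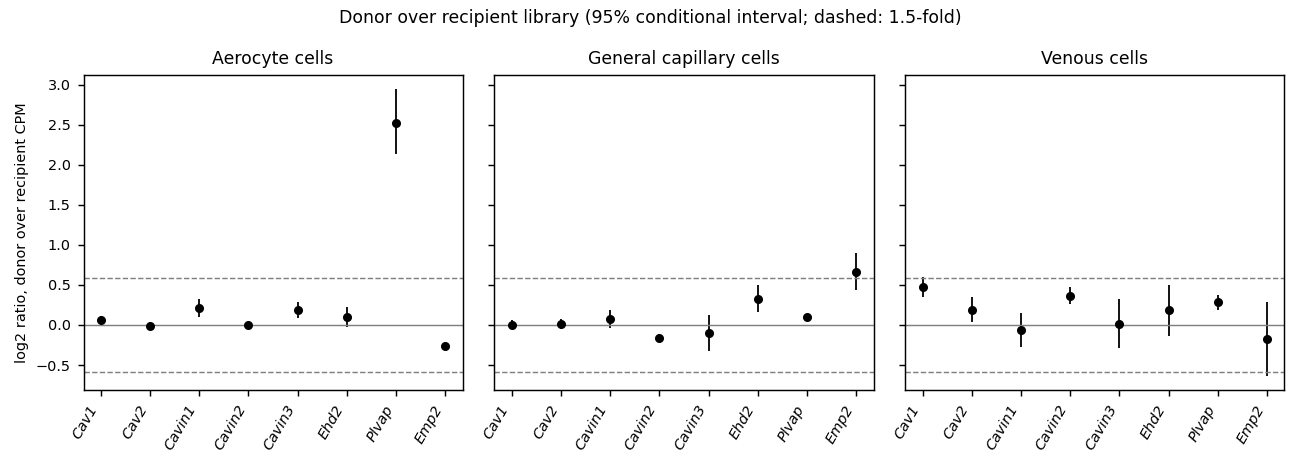
log2 ratio of donor over recipient library for the 8 genes in aerocytes, general capillary cells and venous cells, with 95% exact conditional intervals and dashed lines at 1.5-fold. Plvap in aerocytes (5.76-fold) and Emp2 in general capillary cells (1.59-fold) lie above the upper line, and no gene lies below the lower one.

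Within general capillary cells Plvap was higher in cells that carried more arterial markers. The cells were divided by how many of 7 arterial markers they carried, a division chosen after the data had been seen. Donor cells with 0 to 1, 2 to 3 and 4 to 7 markers had 2698, 3411 and 4110 CPM Plvap, in 254, 1152 and 982 cells. Recipient cells of the same 3 classes had 2444, 3317 and 3915 CPM, in 73, 183 and 150 cells. The order was the same in both libraries and no intervals of neighbouring classes overlapped. The highest class had 1.52-fold the Plvap of the lowest in the donor library (1.47 to 1.58), against 1.60-fold in the recipient one (1.49 to 1.72). Cells of the arterial gate did not continue this order, with 3300 CPM in the donor library and 2323 CPM in 19 recipient cells. That gate allowed at most 2 general capillary markers, while cells of the classes carried at least 3. The part of this gate limit in the break of the order was not tested. The median depth of the classes was 4877, 5330.5 and 5575 UMIs in the donor library, against 5735, 5153 and 5910 UMIs in the recipient one. General capillary markers were nearly level over the classes, between 4441 and 4899 CPM in donor cells and between 4540 and 5054 CPM in recipient cells. Venous markers were highest in the lowest class, at 1249 CPM in the donor library, against 1697 CPM in the recipient one, and their part in the Plvap and Cavin3 values was not tested.

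Cavin3 ran the other way. Donor cells of the 3 classes had 91.7, 78.6 and 70.1 CPM and recipient cells 138, 75.6 and 63.5 CPM. The highest class was 1.31-fold lower than the lowest in the donor library (1.05 to 1.61), against 2.17-fold lower in the recipient one (1.49 to 3.16). Cav1 showed no common direction, with log2 ratios of -0.078 (-0.15 to -0.0037) in the donor library, against 0.16 (0.015 to 0.31) in the recipient one. Cavin2 had -0.18 (-0.25 to -0.11) in the donor library, against -0.11 (-0.24 to 0.011) in the recipient one. The intervals of Cav2, Cavin1 and Ehd2 held 0 in both libraries, and Emp2 had -0.26 (-0.49 to -0.013) in donor cells, which turned to 0.46 under a stricter gate, and 0.30 (-0.40 to 1.06) in recipient cells.

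**Figure D5:**
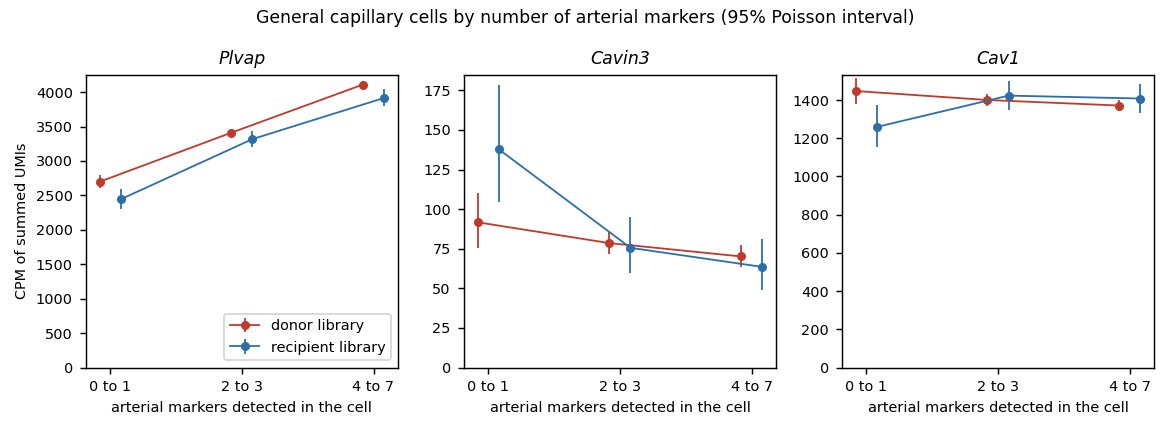
CPM of Plvap, Cavin3 and Cav1 in general capillary cells grouped by the number of arterial markers they carried, donor library in red and recipient library in blue, with 95% Poisson intervals. Plvap is higher and Cavin3 lower in cells with more arterial markers in both libraries, and Cav1 has no common direction.

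Over the 11 sums of a type and library with at least 50 cells, log2(CPM + 1) of Cav1 had a Pearson r of 0.95 with Cav2, 0.94 with Cavin2 and 0.92 with Cavin1. Cavin3 had r between -0.13 and 0.30 with the other 7 genes, and Plvap and Emp2 had r = -0.80. These are descriptions of a few cell types, several of which are endothelial and share a library. The genes most like Plvap among 5661 were Ptprb (r = 0.992), Edn1 (0.990) and Cd93 (0.989), all of them known endothelial genes. Those most like Cav1 were Tapbpl (0.98), S100a13 and Stx3 (0.97 and 0.96), and those most like Cav2 were Stx3 (0.98), Pqlc1 and Pdgfb (both 0.98). Tpm3, Swap70 and Fzd6 were most like Cavin1 (0.98, 0.97 and 0.93), and Samd9l and Mdfic were among those most like Cavin2 (both 0.96). For Cavin3 the best were Atp6v0a2, Nfkbie and Ost4 (0.92, 0.89 and 0.88), for Ehd2 Tbrg1, Arrdc1 and Ubxn4 (0.96, 0.95 and 0.93) and for Emp2 Pfkp, Slc48a1 and Tex264 (0.96, 0.95 and 0.92).

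Of 23 related genes in 3 lists, those at 50 CPM or more were compared between the libraries. In aerocytes 0 of 12 passed 1.5-fold, against 4.25% of all genes. In general capillary cells 2 of 12 did (16.7%), against 9.47%, and in venous cells 2 of 15 (13.3%), against 9.27%. The shares of all genes had the count minimum but no limit of 50 CPM, so the 2 bases are not alike. Among 11 genes of the caveola coat and neck none passed 1.5-fold in any of the 3 compared types, of 5, 4 and 5 that reached 50 CPM in aerocytes, general capillary cells and venous cells. Of 3 further genes of the PMP22 and EMP family, Emp3 was 1.76-fold lower in donor general capillary cells, at 39.5 CPM in donor and 69.7 CPM in recipient cells. Of 9 genes of caveolar cargo and transcytosis, Tfpi, the inhibitor of the tissue factor pathway, was 1.63-fold lower in donor general capillary cells, at 75.4 CPM in donor and 123 CPM in recipient cells. Fibroblast markers, with 7 of 7 detected in each, summed to 2.29 CPM in donor and 65.9 CPM in recipient general capillary cells, and their part in the Emp3 and Tfpi ratios was not tested. In venous cells Nos3, the endothelial nitric oxide synthase that binds caveolin-1, was 1.95-fold lower in the donor library, with 50.4 CPM in donor and 98.1 CPM in recipient cells. Scarb1, a lipoprotein receptor, was 1.63-fold higher there, with 107 CPM in donor and 65.8 CPM in recipient cells.

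Relatives of Ehd2 and Emp2, named after their values were seen, had their own distributions. Ehd4 was high in blood endothelium, with 1669 and 1671 CPM in donor and recipient aerocytes and 1769 and 1857 CPM in general capillary cells, and low in type 1 cells, with 114 and 78.7 CPM, the reverse of Ehd2. Ehd1 was 7.43-fold lower in aerocytes than in general capillary cells in the donor library, against 7.29-fold lower in the recipient one. Pmp22, the founding gene of the Emp2 family, shared the high level of Emp2 in aerocytes (2344 CPM in the donor library, against 2600 in the recipient one) and type 1 cells (3942 and 3562). It was 8.54-fold higher in aerocytes than in general capillary cells in the donor library, against 9.26-fold higher in the recipient one. Emp3 was highest in fibroblasts and pericytes, with 424 and 484 CPM in the recipient library. Venous cells came next, with 281 CPM in donor and 387 CPM in recipient cells, and recipient aerocytes had 8.17 CPM. The muscle members Cav3 and Cavin4 were low. Cav3 was found in fibroblasts alone, at 16.4 CPM in 9 donor cells and 12.5 CPM in 1005 recipient cells, and at 0 in every other type. Cavin4 had at most 7.28 CPM in any type of either library.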

How the data were processed

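The 8 genes and the related lists were chosen with earlier results of these data known. The authors deposited unnormalized UMI counts, made with Cell Ranger on mm10 (version 4.0.0 per the file headers and the submitters' processing notes, 3.0.1 per the labels' protocols). Barcodes beyond 3 scaled median absolute deviations of their library were left out, as were the highest Scrublet scores (scanpy 1.11.5) at 0.8% per 1000 barcodes. Its automatic threshold marked 2 donor-library and 135 recipient-library barcodes. Of barcodes in both libraries, the copy more than 5-fold smaller was left out, and both copies otherwise.

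Marker genes came from a fixed list, and gate thresholds were set after marker counts had been seen. Endothelial cells had at least 3 of 5 pan-endothelial markers and at most 1 each of the epithelial, mesenchymal and leukocyte markers. Aerocytes had at least 4 of 6 markers and 2 more than of the general capillary list. General capillary cells had at least 3 of 6 and at most 2 of the aerocyte list, a fixed limit that the aerocyte gate lacked. Venous cells had 3 of 6 with 2 UMIs of Slc6a2, Selp or Car8. Arterial cells had 5 of 7 and at most 2 general capillary markers, and lymphatic cells 4 of 6. Type 1 cells had 5 of 7, pericytes 4 of 8 and fibroblasts 4 of 7, with few endothelial markers. UMIs were summed per type and library and scaled to CPM. Intervals are exact Poisson, conditional or Clopper-Pearson intervals (scipy 1.17.1). A gene entered a ratio with at least 20 UMIs in both sums together. Likeness used log2(CPM + 1), leaving out gate markers, and the 3 genes of highest r were named, except 1 that is not reported here. Alternatives changed the cell filter, doublet and shared-barcode rules, gates, scaling and free RNA. The free RNA profile was the sum of the kept cells of a library, not of empty droplets. Its amount in each type was set by markers of other lineages, and values below 0 were set to 0. For donor endothelium these lineages were scarce, with 26 type 1 cells and 9 fibroblasts. The ratio and its limits were tested on simulated data. Positions came from GENCODE M21 and sequences from RefSeq.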

Additional observations from a re-analysis of the deposited data

How the results depend on the processing

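The median log2 ratio of donor over recipient library of the 8 genes kept its sign in every alternative run: 0.027 to 0.11 over 14 settings in aerocytes, 0.018 to 0.093 over 13 in general capillary cells and 0.15 to 0.24 over 13 in venous cells. The Plvap ratio in aerocytes lay between 1.66 (gate without exclusion of cells that carry markers of other types) and 2.55 and stayed past 1.5-fold in 12 of 12 settings. The Emp2 ratio in general capillary cells lay between 0.50 (mean of the CPM of single cells) and 0.78 and stayed past 1.5-fold in 8 of 11. It was 0.53 with free RNA subtracted and 0.55 without the exclusion of other types. The 3 genes that differed between the capillary types stayed past 2-fold in 12 of 12 settings in both libraries, with Plvap from -8.05 to -4.87 in the donor library and from -9.88 to -6.95 in the recipient one (free RNA subtracted, and doublet scores not used, in each). TMM scaling (edgeR 4.0.16) raised every aerocyte over general capillary ratio by 0.11 in the donor library, against 0.047 in the recipient one, and turned the small Ehd2 ratio of donor cells positive. Of 272 gene ratios between the libraries under the alternatives, 260 stayed within their counting interval, as did 165 of 192 aerocyte over general capillary ratios and 1096 of 1296 levels. None of these ratios that was past a limit changed sign. In general capillary cells with 4 to 7 against 0 to 1 arterial markers the donor Emp2 ratio turned to 0.46 under the stricter gate; the cause was not tested. The Plvap ratio of these classes lay between 0.58 and 0.62 in donor cells and between 0.66 and 0.71 in recipient cells. An aerocyte gate with at most 1 general capillary marker and the arterial classes were added after the data had been seen. No paired analysis was possible because each group had 1 library, and for the same reason no replicate could be left out. Donor lymphatic, type 1, pericyte and fibroblast levels were limited by their few cells (3, 26, 37 and 9). Keeping shared barcodes raised donor type 1 cells to 63, against 26, with Emp2 at 3806 CPM.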
